A study of Mus musculus with 8 samples.

Results

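The peptides VIP and PACAP, their receptors and the prokineticin pair that carries signals out of the suprachiasmatic nucleus were examined in ribosome-bound RNA of mouse hypocretin neurons. The members were the probe sets that the platform annotation assigns to the single symbol Vip, Vipr1, Vipr2, Adcyap1, Adcyap1r1, Prok2 or Prokr2. These were 14 of 45101 probe sets on the array, and all 7 genes, of 18193 with such a symbol, were represented. 5 of the 14 probe sets, standing for 4 of the 7 genes, passed the filter on low values and were tested among 17865 probe sets.

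The samples came from adult mice of 6 to 12 weeks, both sexes, on a mixed Fvb and c57/bl6j background, all carrying the transgene of line Hcrt JD218. The transgene is a bacterial artificial chromosome named for the hypocretin gene, and it tags ribosomes so that RNA bound to them can be pulled down. 1 such line was used. Thalamus and hypothalamus were dissected together and 5 mice were pooled per sample. The 4 immunoprecipitates hold the RNA pulled down with the tagged ribosomes, and the 4 unbound fractions, taken from the same preparations, stand for RNA of the whole tissue. Both fractions thus come from the same transgenic mice, and a precipitate from mice without the transgene was not analysed here. The time of day of collection was not given in the sources used here.

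VIP and PACAP belong to the secretin family of peptides and act on class B receptors that couple to Gs and raise cyclic AMP. Vipr1 and Vipr2 encode the receptors that bind both peptides about equally, and Adcyap1r1 encodes the receptor that prefers PACAP, the product of Adcyap1. In the suprachiasmatic nucleus, the circadian pacemaker of the hypothalamus, VIP neurons of the core receive input from the retina and signal through Vipr2, which helps to keep the clock neurons in step. PACAP is a transmitter of the retinal fibres that reach this nucleus and is also made by neurons elsewhere in the hypothalamus. Prok2 encodes prokineticin, a rhythmic output peptide of the nucleus, and Prokr2 its receptor on target neurons.

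Levels are given as log2 array values, on which the filter's linear value of 50 is 5.64. Values of different probe sets are not comparable with each other as amounts of RNA. The share of probe sets at or above 50 was 33.6% to 34.8% per array in the immunoprecipitates, against 40.5% to 40.9% in the unbound fractions. A call needed both a 2-fold difference and an adjusted p under 0.05 from limma. By that rule 45.1% of the tested probe sets were lower and 4.88% higher in the immunoprecipitate, and the median tested probe set stood at a log2 fold change of -0.87. Of the hypocretin neuron markers Hcrt, Pdyn, Lhx9 and Nptx2, all 4 were higher in the immunoprecipitate, with a list median of 4.19 (3 were called on the poly-A controls). Hcrt averaged 15.36 ± 0.17 in immunoprecipitates, against 10.33 ± 0.55 in unbound fractions (SD, n = 4 each). Precipitation and cell type differ together between the fractions, and fewer cells of a type and less RNA per cell cannot be told apart in such samples. With 4 arrays a group, precision is set by the number of arrays.

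4 of the 5 tested member probe sets were lower in the immunoprecipitate and 0 were higher, against 45.1% and 4.88% of all tested probe sets. 1 of the 4, that of Prokr2, reached the minimum on unbound arrays alone, so the filter fixed its direction and it adds nothing to these counts; of the other 4 probe sets, 3 were lower. By gene, 3 of 4 tested members were lower, Vip, Adcyap1 and Prokr2, and 0 were higher, where 44.2% of 10398 tested genes were lower and 4.74% higher. Without Prokr2 that is 2 of 3. The remaining gene, the PACAP receptor gene Adcyap1r1, did not pass 2-fold. In 4 of the 5 probe sets all immunoprecipitates lay under all unbound fractions and in 0 above them, Prokr2 again included, as in 50.1% and 6.85% of all tested probe sets. The median of the 5 log2 fold changes, Prokr2 included, was -2.40. All 5 probe sets had a lower value in the immunoprecipitate than in the unbound fraction in 4 of 4 preparations, as did 63.3% of all tested probe sets. Prokr2 had to do so and adds nothing here either, which leaves the other 4 probe sets. The other 3 genes, Vipr1, Vipr2 and Prok2, had no probe set at or above 50 on any of the 8 arrays.

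**Figure D1:**
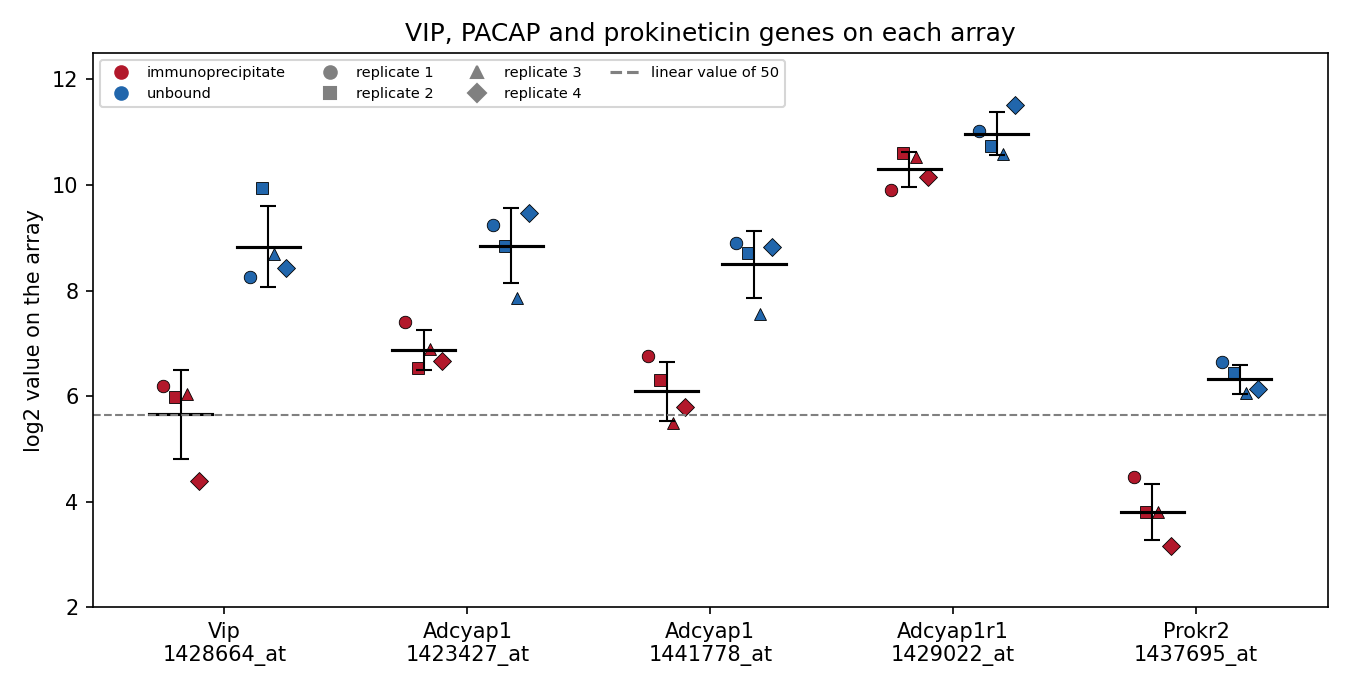
Log2 array value (vertical axis) of the 5 tested member probe sets, in immunoprecipitates (red, left of each pair) and unbound fractions (blue), with 1 point per array, replicates by marker shape, bars at the mean ± SD (n = 4) and a dashed line at the linear value of 50. The groups lie apart for Vip, both Adcyap1 probe sets and Prokr2, and overlap for Adcyap1r1.

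Among the peptide genes, Vip stood at 6.19, 5.99, 6.04 and 4.40 in immunoprecipitate replicates 1 to 4, against 8.25, 9.95, 8.69 and 8.44 in the unbound fractions. The groups did not overlap: 3 of 4 immunoprecipitates lay just above the minimum and replicate 4 below it, whereas every unbound fraction was well above it and replicate 2 the highest. With the value under 50 raised to it, Vip was at least 7.30-fold lower in the immunoprecipitate. The fitted log2 fold change was -3.18 ± 0.48 (SE, limma adjusted p = 0.00030), and 5.60% of all tested probe sets had a lower one. Within a preparation the difference was -2.06, -3.96, -2.65 and -4.04 on the log2 scale. Without immunoprecipitate and unbound replicate 4, an alternative added after the values were seen, it was -2.89 (limma adjusted p = 0.0012).

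Adcyap1, the gene of PACAP, was read by a pair of probe sets. On 1423427_at it stood at 7.40, 6.53, 6.90 and 6.66 in immunoprecipitate replicates 1 to 4, against 9.24, 8.84, 7.86 and 9.48 in the unbound fractions. All 4 immunoprecipitates were above 50 here, and the closest values were 7.40 in immunoprecipitate replicate 1 and 7.86 in unbound replicate 3. Adcyap1 was 3.94-fold lower in the immunoprecipitate by this probe set (log2 fold change -1.98 ± 0.37 SE, limma adjusted p = 0.0010). On 1441778_at it stood at 6.77, 6.32, 5.50 and 5.80 in the immunoprecipitates, against 8.90, 8.71, 7.56 and 8.82 in the unbound fractions. The second probe set gave the same order of groups, with immunoprecipitate replicate 3 below 50, and a fold of at least 5.16 lower (log2 fold change -2.40 ± 0.38 SE, limma adjusted p = 0.00040). After quantile normalization 1423427_at gave -0.95 and lost its call (limma adjusted p = 0.054), while 1441778_at kept it at -1.29 (limma adjusted p = 0.016). The 2 probe sets agreed in placing unbound replicate 3 lowest of the unbound fractions and differed in which immunoprecipitate was lowest.

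The start regions of Vip and Adcyap1, the pair of ligand genes that were lower in the immunoprecipitate, share a stretch of letters in front of the start site. It is TGACGTC, the first part of the cyclic AMP response element, through which cyclic AMP and CREB are known to drive transcription of Vip. The 250 bases before a RefSeq start site of each gene are shown with that motif in capitals, from the GRCm38.p6 table, Vip at chr10:5638968-5639217 on the plus strand and Adcyap1 at chr17:93198767-93199016 on the plus strand. Those of Prok2, at chr6:99726393-99726642 on the minus strand, are shown because they hold the other motif searched, the E-box CACGTG (capitals), to which the clock factors CLOCK and BMAL1 bind.
Vip: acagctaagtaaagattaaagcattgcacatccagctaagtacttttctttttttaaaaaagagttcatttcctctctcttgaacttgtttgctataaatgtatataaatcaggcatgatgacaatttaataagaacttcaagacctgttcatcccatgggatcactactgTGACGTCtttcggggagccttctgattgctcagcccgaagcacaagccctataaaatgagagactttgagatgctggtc
Adcyap1: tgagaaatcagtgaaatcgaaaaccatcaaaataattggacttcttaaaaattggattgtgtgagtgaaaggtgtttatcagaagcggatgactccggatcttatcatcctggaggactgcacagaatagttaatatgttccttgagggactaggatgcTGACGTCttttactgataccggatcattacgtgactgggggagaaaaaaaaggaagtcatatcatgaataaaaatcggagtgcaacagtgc
Prok2: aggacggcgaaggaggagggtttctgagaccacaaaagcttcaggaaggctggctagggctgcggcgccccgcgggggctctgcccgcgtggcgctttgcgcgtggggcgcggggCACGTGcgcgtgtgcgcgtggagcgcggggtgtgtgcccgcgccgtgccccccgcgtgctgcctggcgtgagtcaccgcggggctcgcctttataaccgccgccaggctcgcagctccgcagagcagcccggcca

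The motif began at position -79 from the start site of Vip and at -91 from the one shown for Adcyap1, on the strand of the gene in each case. A further start window of Adcyap1 overlaps the one shown and holds the same copy of the motif, at -242 from its own start site. Searched on both strands in windows of 300 bases, TGACGTC was found in 3.60% of 27025 genes, and in 2 of the 7 members. The full palindrome TGACGTCA, which contains TGACGTC, was found in 2.03% of genes and in 0 members. CACGTG was found in 8.09% of genes and in 1 member, Prok2, beginning at -135 from its start site. A match describes the letters only, and transcription and binding were not measured.

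Prok2 itself gave no signal by which the fractions could be compared. Its 3 probe sets lay at 2.20 in every immunoprecipitate and, save 1 value, at 2.15 to 2.16 in the unbound fractions, next to the lowest values of the arrays. The exception was 1451952_at at 3.45 in unbound replicate 3, still under the minimum. On these arrays Prok2 was not detected in either fraction, which does not show that its RNA was absent, and no fold is given.

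Among the receptor genes, Adcyap1r1 was the member with signal well above the minimum in both fractions. On 1429022_at it stood at 9.90, 10.61, 10.54 and 10.15 in immunoprecipitate replicates 1 to 4, against 11.02, 10.75, 10.59 and 11.52 in the unbound fractions. The groups overlapped, since immunoprecipitate replicate 2 reached 10.61 and unbound replicate 3 lay at 10.59. The log2 fold change was -0.67 ± 0.26 (SE, limma adjusted p = 0.042), or 1.59-fold, which did not pass 2-fold, and 56.3% of tested probe sets had a lower one. Within a preparation the difference was -1.12, -0.13, -0.05 and -1.37, so replicates 2 and 3 showed almost none and replicates 1 and 4 over 2-fold. Without both arrays of replicate 4, an alternative added after the values were seen, the log2 fold change was -0.44 (limma adjusted p = 0.18), and its direction turned after median centring (0.25, limma adjusted p = 0.40). The other 2 probe sets of the gene were under 50 on all arrays, 1439042_at with 2.21 in each immunoprecipitate and 3.16 to 3.44 in the unbound fractions, and 1450799_at with 3.34 to 3.84 in the immunoprecipitates, against 2.54 to 4.01 in the unbound fractions. They add nothing on direction, and the level of Adcyap1r1 rests on 1 probe set of 3.

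Adcyap1r1 is known to be expressed by astrocytes as well as neurons, so the level of glial markers in the same arrays was set beside it. For the counts of markers that follow, 44.2% of all tested genes were lower and 4.74% higher. Of 8 astrocyte markers, 8 were tested and 8 were lower in the immunoprecipitate, with a list median of -2.95. The mean of these astrocyte markers ran at 7.25 to 8.85 in the immunoprecipitates, against 10.83 to 11.02 in the unbound fractions. The markers Gfap and Sox9 reached 50 on 1 and on 0 of the 4 immunoprecipitate arrays. Of 6 oligodendrocyte markers 5 were tested and 5 were lower, with a mean of 9.48 to 10.97 in the immunoprecipitates, against 12.52 to 12.82 in the unbound fractions. All 3 GABAergic markers were lower (median -2.06), with a mean of 9.50 to 10.57 in the immunoprecipitates, against 12.00 to 12.40 in the unbound fractions. After median centring 7 of 8 astrocyte, 2 of 5 oligodendrocyte and 2 of 3 GABAergic markers were lower, where 21.2% of all tested probe sets were. Markers of melanin-concentrating hormone neurons (3 of 3 tested), thalamic neurons (4 of 5), microglia (5 of 5) and vessels (3 of 3) were lower as well. After median centring these were 2 of 3, 3 of 5 with Calb2 higher, 3 of 5 and 1 of 3. Sox9, the thalamic marker Lef1, the microglial C1qa and Cx3cr1 and the vessel marker Cldn5 reached 50 on 0 immunoprecipitate and 4 unbound arrays. The filter thus fixed their direction, and they add nothing to the counts. The glutamatergic marker Slc17a6 gave -0.69 without a call. Of 6 suprachiasmatic markers, Vip included, 3 were tested and 3 were lower, with a mean of 4.62 to 6.44 in the immunoprecipitates, against 8.01 to 9.86 in the unbound fractions. After quantile normalization 2 of these 3 were lower, and Grp lost its call (-1.80, limma adjusted p = 0.062). The astrocyte, oligodendrocyte and GABAergic markers were thus above 50 on average in the immunoprecipitates, and the part of such RNA in the signal of Adcyap1r1, Adcyap1 and Vip there was not tested.

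Prokr2, the prokineticin receptor gene, was read by 1437695_at at 4.46, 3.81, 3.81 and 3.16 in immunoprecipitate replicates 1 to 4, against 6.64, 6.44, 6.06 and 6.13 in the unbound fractions. All 4 immunoprecipitates were under 50 and all 4 unbound fractions a little above it, and the groups did not overlap. Because the immunoprecipitate gave only an upper limit, Prokr2 was at least 1.61-fold lower there, with a fitted log2 fold change of -2.51 ± 0.29 (SE, limma adjusted p = 6.9e-05). Its second probe set, 1440564_at, was at 2.34 to 2.64 in the immunoprecipitates, against 5.31 to 6.53 in the unbound fractions. It reached 50 on a single array, unbound replicate 3, and was not tested. Its immunoprecipitates too lay below its unbound fractions, but a probe set that reaches the minimum in its higher group alone has to differ. That holds for 1437695_at too, which passed the filter through its 4 unbound arrays alone.

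The receptors of VIP, Vipr1 and Vipr2, were under 50 on all 8 arrays, as were 55.5% of all probe sets other than controls. Vipr2, on 1421391_at, stood at 2.20 in each immunoprecipitate and at 2.77 in each unbound fraction. Vipr1 lay at 2.21 to 2.29 in the immunoprecipitates, against 2.19 to 2.23 in the unbound fractions on 1423004_at, and on 1455555_at at 2.35 in the immunoprecipitates, against 2.90 to 3.15 in the unbound fractions. Several of these values are identical on all arrays of a group, as at a floor, and the groups were normalized apart, so the step between fractions is not read as a difference. Neither receptor was detectable at the sensitivity of these arrays, in hypocretin neuron RNA or in the whole diencephalon, where Vipr2 is known to be expressed by suprachiasmatic neurons.

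**Figure D2:**
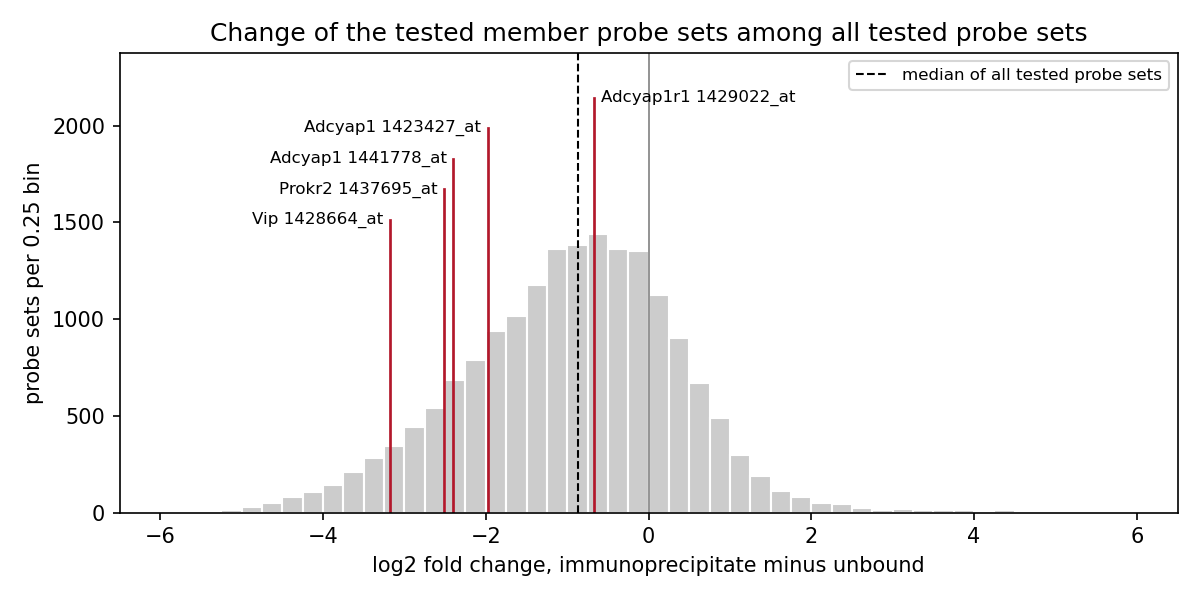
Number of tested probe sets (vertical axis) by log2 fold change, immunoprecipitate minus unbound (horizontal axis), with red lines at the 5 tested member probe sets and a dashed line at the median of all 17865. Vip lies in the lower tail at -3.18, Prokr2 and both Adcyap1 probe sets between -2.51 and -1.98, and Adcyap1r1 at -0.67, near the median of -0.87.

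Vip, Adcyap1 and Adcyap1r1 were then compared with each other within each array, a test added after their values were seen. Each gene was read by its brightest tested probe set, for Adcyap1 1423427_at. The other, 1441778_at, had the larger change (-2.40, against -1.98) and was not put to this test. A difference between probe sets on the same array does not depend on the constant chosen to align the fractions. The groups were normalized apart, however, and a step between them that differs from probe set to probe set would not cancel. The permutation treats arrays of both groups as exchangeable, and the part of such steps in its p-values was not tested. Vip minus Adcyap1r1 averaged -4.64 ± 0.84 in the immunoprecipitates, against -2.14 ± 1.02 in the unbound fractions (SD, n = 4 each), a difference of -2.51 on the log2 scale (2-sided exact permutation p = 0.029, the smallest that 4 against 4 arrays allow, adjusted p = 0.086 over 3 comparisons). Adcyap1 minus Adcyap1r1 averaged -3.43 ± 0.66 in the immunoprecipitates, against -2.12 ± 0.42 in the unbound fractions, a difference of -1.31 (exact permutation p = 0.057, adjusted p = 0.086). Neither passed 0.05 after adjustment, and both adjusted p-values rest on the choice of 1423427_at for Adcyap1. Without immunoprecipitate replicate 1 both did pass (exact permutation, adjusted p = 0.043 for each). Vip minus Adcyap1 differed by -1.20 ± 0.69 (SE), which did not pass the test (exact permutation p = 0.20, adjusted p = 0.20). Within preparations 1 to 4 the difference was -0.94, -3.82, -2.60 and -2.66 for Vip minus Adcyap1r1, with a paired SE of 0.59. It was -0.72, -2.17, -0.91 and -1.44 for Adcyap1 minus Adcyap1r1 (paired SE 0.32), and -0.22, -1.66, -1.69 and -1.22 for Vip minus Adcyap1 (paired SE 0.34). All 3 differences were thus lower in the immunoprecipitate in 4 of 4 preparations, for which an exact sign-flip permutation of the 4 pairs gives p = 0.125 each, the smallest it allows, so the paired test could not pass 0.05 at this number of preparations.

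The scale on which the fractions are aligned moves every probe set by 1 amount, except with quantile normalization. The median of all tested probe sets was -2.84 when 24 poly-A controls were used, -0.87 on the hybridisation controls, -0.85 as deposited, -0.04 after quantile normalization and 0.05 after median centring of each array. Vip ran from -5.14 to -2.06 over these scales and was called lower on each. For Prokr2 only a bound can be given, and its bound of -0.69 (1.61-fold lower) was computed on the hybridisation controls alone. Median centring moves the median of all tested probe sets by 0.92, more than that bound, so the bound does not show Prokr2 lower on that scale. The other folds given as at least move with the scale too. Relative to the median of all tested probe sets, Vip stood at -2.30 and the 2 Adcyap1 probe sets at -1.53 and -1.11 on the hybridisation controls. Adcyap1r1 stood at 0.20 above that median. After median centring 21.2% of all tested probe sets were lower, among them Vip and both Adcyap1 probe sets.

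**Figure D3:**
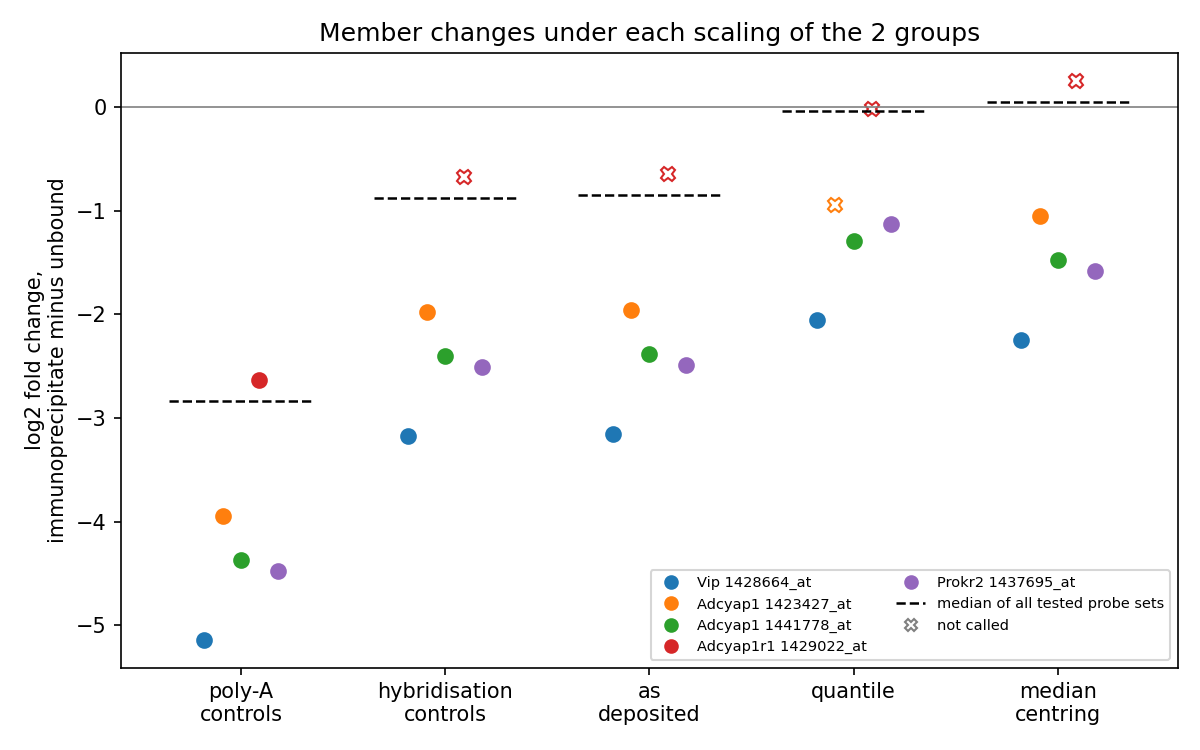
Log2 fold change, immunoprecipitate minus unbound (vertical axis), of the 5 tested member probe sets under each of 5 ways of aligning the fractions (horizontal axis), with dashed lines at the median of all tested probe sets and open crosses where a probe set was not called. Vip and Adcyap1 1441778_at are called lower under each, the fitted values of Prokr2 are not bounds, and Adcyap1r1 lies next to the median throughout.

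The other suprachiasmatic neuron genes listed for the comparison were mostly lower too. 10 of 14 tested genes were lower and 0 higher, with a median of -2.50. Of all tested genes 44.2% were lower and 4.74% higher, with a median of -0.85. The 10 include Lhx1, whose direction the filter fixed and which adds nothing to the count. After median centring 8 were lower and Gpr176, Calb1 and Calb2 higher, and after quantile normalization 7 were lower and Gpr176 higher. Many of the listed genes are also expressed in other parts of the diencephalon, so the list does not stand for that nucleus alone. Rora and Calb2 were counted among the thalamic markers too, on the same probe sets. Lhx1, a LIM factor of developing suprachiasmatic neurons, was at least 1.58-fold lower, with all immunoprecipitates under 50, so that it passed the filter through the unbound fractions alone. Zfhx3, a homeobox factor that shapes circadian period, was 11.5-fold lower (limma adjusted p = 0.00012), the vasopressin gene Avp of the nucleus's shell 9.70-fold and the nuclear receptor gene Rora 7.85-fold. Of the listed genes, Nms, Six6 and Syt10 were not tested, and Six6, a factor of that region, reached at most 2.32 in the immunoprecipitates, against 4.36 in the unbound fractions.

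Avp and Grp, which mark the shell and part of the core, were set beside Vip preparation by preparation. Avp stood at 6.18, 6.34, 6.02 and 5.83 in immunoprecipitate replicates 1 to 4, against 8.41, 10.22, 10.22 and 8.64 in the unbound fractions. Grp, the gene of gastrin-releasing peptide, stood at 6.94, 6.53, 4.26 and 3.64 in the immunoprecipitates, against 8.22, 9.42, 8.65 and 6.95 in the unbound fractions. Unbound replicate 2 was thus the highest for Vip and Grp and level with replicate 3 for Avp, and immunoprecipitate replicate 4 was the lowest for all 3. Immunoprecipitate replicate 4 was the lowest of its group in 27.9% of all tested probe sets.

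Related peptides, receptors and receptor partners of the same family were largely undetected. Of 19 listed genes 6 were tested, of which 5 were lower and 1 was higher, with a median of -2.14. Of all tested genes 44.2% were lower and 4.74% higher. The 1 listed gene that was higher was Crhr2, a class B receptor for corticotropin-releasing hormone and urocortins. It stood at 7.96, 8.47, 9.07 and 9.03 in the immunoprecipitates, against 3.62, 4.21, 3.84 and 4.10 in the unbound fractions. All unbound fractions were under 50, so Crhr2 was at least 7.86-fold higher. It passed the filter through the immunoprecipitates alone and so had to differ, and its limma adjusted p (2.2e-06) adds nothing to that. Among those lower, Calcrl, the shared receptor of calcitonin gene-related peptide and adrenomedullin, was at least 2.54-fold lower, having passed the filter through the unbound fractions alone, and the parathyroid hormone receptor gene Pth1r at least 2.08-fold, though Pth1r lost its call after quantile normalization. The receptor partner gene Ramp3 was 4.66-fold lower. The secretin receptor gene Sctr and the growth hormone-releasing hormone receptor gene Ghrhr were near the floor in both fractions. The calcitonin receptor gene Calcr, not tested either, reached at most 3.92 in the immunoprecipitates, against 7.48 in the unbound fractions, and neither Prok1 nor Prokr1, the relatives of Prok2 and Prokr2, was tested.

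Downstream of these receptors, 10 of 20 tested genes of the Gs and cyclic AMP path were lower and 1 was higher, with a median of -1.23. These counts lie near those of all tested genes, of which 44.2% were lower and 4.74% higher with a median of -0.85, and are no result about the path. After median centring 6 were lower and Adcy8, Gnas and Crem higher, and on the poly-A controls 19 were lower and 0 higher. The adenylyl cyclase genes Adcy1, Adcy2 and Adcy9 were 6.61-, 6.49- and 6.00-fold lower and the transcription factor gene Creb1 5.46-fold. Adcy8, singled out with its value known, was the cyclase that rose, at 10.21 ± 0.27 in immunoprecipitates against 8.88 ± 0.70 in unbound fractions (SD, n = 4 each), 2.52-fold higher (limma adjusted p = 0.0061). On the poly-A controls it gave -0.63 and lost its call (limma adjusted p = 0.093). Gnas, which encodes the Gs alpha subunit and was also singled out with its value known, averaged 15.10 ± 0.26 in immunoprecipitates, against 14.85 ± 0.26 in unbound fractions (SD, n = 4 each, limma adjusted p = 0.20). That is its brightest probe set, and others of Gnas disagreed, 1 at 3.84 and another at -3.97, both called, and this locus gives rise to several overlapping transcripts.

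The genes listed for the processing of precursors such as those of VIP and PACAP hold enzymes, the convertase chaperone gene Scg5 and the convertase inhibitor gene Pcsk1n. Of these, 2 of 5 tested were higher and 0 lower, with a median of 0.45. Of all tested genes 4.74% were higher and 44.2% lower. On the poly-A controls 2 of the 5 were higher and 3 lower. The prohormone convertase gene Pcsk1 was 41.0-fold higher and the amidating enzyme gene Pam at least 2.99-fold, having passed the filter through the immunoprecipitates alone. Cpe, the carboxypeptidase that trims the cut peptides, chosen for mention with its value known, gave -0.32 (limma adjusted p = 0.10).

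**Figure D4:**
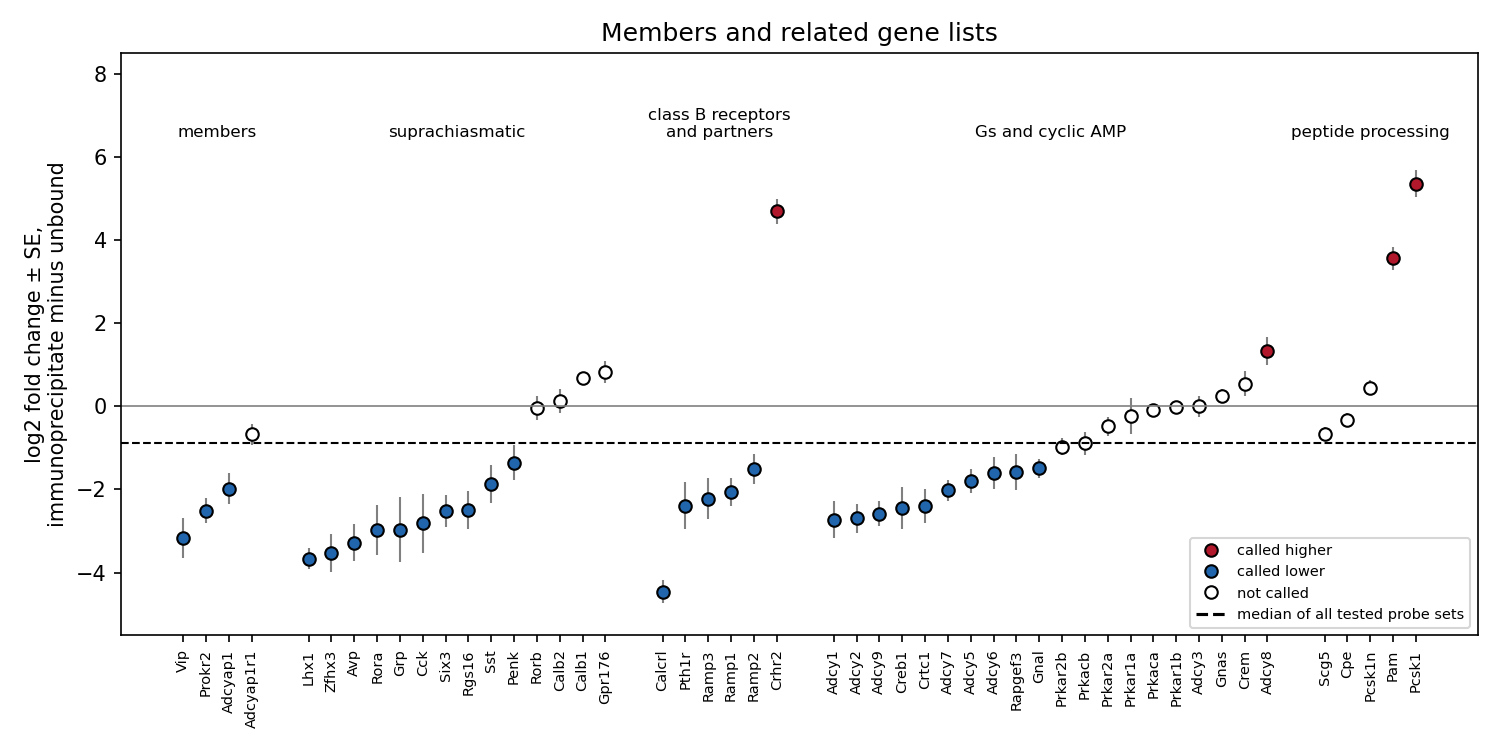
Log2 fold change ± SE, immunoprecipitate minus unbound (vertical axis), of the 4 tested members and of 4 related gene lists, 1 point per gene at its probe set with the highest mean, red where called higher, blue where called lower and white where not called. Suprachiasmatic and receptor genes lie mostly below the dashed median of all tested probe sets at -0.87, with Crhr2, Pcsk1 and Pam far above it. Fitted values of genes under 50 in a group, such as Crhr2, Calcrl and Lhx1, are not bounds.

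The genes whose pattern over the 8 arrays was most like that of each tested member were found by Pearson correlation among 10398 genes, as a description. The arrays form 2 groups, and every array of a group shares its normalization. For Vip they were Smarcb1 and Sorl1 (r = 0.99 for each), with 436 genes above 0.95. For Adcyap1 they were Ccne1 and Fndc3b (r = 0.99 for each), with 427 genes above 0.95. For Prokr2 they were Bmpr2 (r = 0.999) and Jam2 (r = 0.998), with 1647 above 0.95. Adcyap1r1 had the fewest such genes, 2 above 0.95, Kctd10 (r = 0.97) and Siae (r = 0.96). Both, like Adcyap1r1, had their larger differences in preparations 1 and 4, which follows from their having been picked for this correlation.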

How the data were processed

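Ribosome-bound RNA (4 immunoprecipitates) and unbound RNA (4 fractions of the same preparations) were measured on 8 Affymetrix mouse arrays after 2-cycle amplification from 20 ng of RNA, per the labels' protocols. The values deposited by the authors were taken as log2, going by their range. The submitters' processing notes name GCRMA (version not given in the sources used here), run within each group per the series' design text. Immunoprecipitate values started at 2.21 and unbound values at 2.14.

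The groups were aligned, as the design text recommends, on the means of 18 biotinylated hybridisation controls, which shifted them by 0.02. The 64 control probe sets were left out. Probe sets reaching 50 (linear) on 4 or more arrays were fitted in R 4.3.3 by limma 3.58.1 (lmFit, eBayes with trend), Benjamini-Hochberg adjusted over all 17865. Where a group had values under 50, they were raised to it and the fold is given as at least, on the hybridisation controls only. Symbols came from the platform annotation: 34945 probe sets had 1 symbol, 932 several and 9160 were not listed. Per gene, the brightest probe set on average was used. Promoter windows came from RefSeq (GRCm38.p6). The fit was tested on simulated data. Plots used matplotlib 3.10.9.

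The members and the lists were chosen with earlier results of these data known. Named were every member probe set, for each list up to 4 genes, the most changed among those called (the 2 brightest where fewer than 2 were called), and the 2 genes most correlated with each tested member; others are marked.

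Replicate numbers join the fractions of 1 preparation, per the labels. Same-numbered arrays deviated together from their group means (r = 0.44, 0.33, 0.25 and 0.59 for replicates 1 to 4). The highest r of each immunoprecipitate with an unbound fraction of another number was -0.06, 0.26, 0.24 and -0.10. The values thus set the same number apart for replicates 1 and 4 and hardly for 2 and 3. The numbers were taken to pair the samples, as the labels give them. Alternatives were a replicate block, no shift, median centring, quantile normalization, poly-A controls, no filter, a minimum of 100, no trend, other fold thresholds, averaging over probe sets, and leaving out arrays. The comparisons between members and the fit without replicate 4 were added after the values were seen.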

Additional observations from a re-analysis of the deposited data

Results flagged for a closer look

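In 61 groups of 4 arrays with a range of at least 0.1, the gap of an array to the nearest other was taken as a share of the group's range. In 11 groups it was above Dixon's critical value, which about 1 in 20 groups of normally distributed values would pass. Where the other values are nearly equal, as at the floor, any value off it is flagged. That holds for Prokr2 on 1440564_at in the immunoprecipitates and Prok2 on 1451952_at in the unbound fractions. The groups are also not independent, since some genes were picked for their correlation with a member, so the count is a description only. Among the members, Vip stood at 4.40 in immunoprecipitate replicate 4, with the others at 5.99 to 6.19. Adcyap1 on 1441778_at stood at 7.56 in unbound replicate 3, with the others at 8.71 to 8.90. Prokr2 on 1440564_at stood at 6.53 in unbound replicate 3, with the others at 5.31 to 5.42, and at 2.64 in immunoprecipitate replicate 3, with the others at 2.34. Prok2 on 1451952_at stood at 3.45 in unbound replicate 3 and Vipr1 on 1455555_at at 2.90 in unbound replicate 4, both under the minimum. Unbound replicate 3 thus accounts for 3 of these, in both directions.

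Among other named genes, Pth1r stood at 7.57 in unbound replicate 4 (others 6.38 to 6.52) and Pam at 4.04 there (others 3.52 to 3.57). Ramp3 stood at 6.87 in immunoprecipitate replicate 4 (others 8.82 to 9.05), Smarcb1 at 8.89 (others 9.11 to 9.13) and Sorl1 at 8.66 (others 9.68 to 9.88). Smarcb1 and Sorl1 were picked for their correlation with Vip, which is flagged on the same array, so they add nothing to what Vip shows. The signal of Gapdh at its 3' end minus its 5' end, a measure of RNA integrity, was 4.50 in immunoprecipitate replicate 4 and 2.12 to 2.31 in the other immunoprecipitates, and 3.36 in unbound replicate 4 and 1.94 to 2.08 in the other unbound fractions. The same measure for Actb did not set immunoprecipitate replicate 4 apart, at 4.11, against 4.05, 3.14 and 3.53 in immunoprecipitate replicates 1 to 3. In the unbound fractions it was 3.801 in replicate 4 and 3.015 to 3.453 in the others. The part of RNA integrity in these values was not tested.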

How the results depend on the processing

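The lower calls of Vip and of Adcyap1 on 1441778_at held under each of 19 alternatives, with log2 fold changes from -5.14 to -2.06 and -4.37 to -1.29. Prokr2 was not tested at a minimum of 100, and its calls elsewhere say nothing about stability, since it passed the filter through the unbound fractions alone. Adcyap1 on 1423427_at lost its call at a 4-fold threshold, by construction, and after quantile normalization, where the cause was not tested. Adcyap1r1 turned to 0.25 after median centring, which moves the median of all probe sets by 0.92, and was called at -2.64 on the poly-A controls and with no fold threshold. Over all probe sets, 3666 were higher and 3789 lower after median centring (49.2% of calls higher, against 9.76% on the hybridisation controls), quantile normalization gave 3081 higher and 3726 lower (45.3%), and the poly-A controls 125 higher and 16823 lower (0.738%). With no filter 1402 were higher, with no fold threshold 1489, and at 4-fold 257 were higher and 3714 lower. Leaving out 1 array gave 775 to 1064 higher and 7840 to 8163 lower, with 4 member probe sets lower each time. The replicate block left 4 member probe sets lower and changed no other member call; for the differences between members it gave adjusted p = 0.125 by exact sign flips, the smallest possible. The difference of Vip or Adcyap1 from Adcyap1r1 passed 0.05 without immunoprecipitate replicate 1 and under none of the other 9 alternatives. Adcyap1 was read by 1423427_at in all of these, and 1441778_at was not tried. The level of Prokr2, Vipr1, Vipr2 and Prok2 in the immunoprecipitate is limited by signal under the minimum.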
